A study of Homo sapiens with 16 samples.

Results

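The genes of the EGFR ligand family and their receptor were examined for binding of p65, the RELA subunit of NFκB, in 2 colon cancer cell lines. The 9 genes, of 19970 protein-coding genes in the annotation, were the receptor gene EGFR, the ligand genes TGFA, EREG, AREG, EPGN, BTC and HBEGF, the feedback inhibitor gene ERRFI1 and the neuregulin gene NRG1. Each was read from 50 kb upstream of its 5′ end to 10 kb downstream of its 3′ end on GRCh38, and the stretch of chromosome 4 from EPGN to BTC was read without a gap. A 200-bp bin was listed when the mean of at least 1 group of ChIP libraries reached 2 tags per base and 4 times the input made from cells of that group. By this rule 23 of the 12193 bins read were listed, in 13 regions, against 12569 of the 15155223 bins of the genome. The rule uses the measured signal, so the fact that a listed bin is high in some group is the choice itself and not a result.

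HT29 and SW480 are established human colon cancer lines. Cells of each line had been stably transfected with an empty vector (mock) or with estrogen receptor beta (ERβ), a nuclear receptor that is largely lost from such lines, so ERβ was present from a construct and not from its own locus. All ChIP cultures, mock included, had received TNFα at 30 ng/ml for 30 min and none had received estradiol. Cells without TNFα were not analysed here. There were 3 p65 ChIP libraries and 1 input for each of the 4 groups, HT29 mock, HT29 ERβ, SW480 mock and SW480 ERβ, and the inputs of the ERβ groups had been made for another series. The comparisons asked whether ERβ changed p65 binding within each line, and whether the lines differed.

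EGFR is a receptor tyrosine kinase of the intestinal epithelium that signals to the RAS-MAPK and PI3K cascades once a ligand is bound. Its ligands are made as membrane proteins and cut free at the cell surface, so that a cell can stimulate itself and its neighbours, and ERRFI1 (MIG6) is made in response and blocks the kinase. TNFα frees p65 to enter the nucleus, where it binds κB sites in promoters and in distant enhancers. Binding near a gene does not show that the gene responds, and no expression was measured in these libraries.

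The sequences of 3 regions are shown because these regions carry most of what follows. They are the intronic regions of EGFR and TGFA with the highest signal, and a second intronic region of TGFA with the same κB letters. Each line gives the plus strand of the leading bin, which is the bin with the highest mean over the 12 ChIP libraries, and capitals mark matches to the κB consensus or to the AP-1 motif (TGACTCA or TGAGTCA).
EGFR intron, 46.3 kb from the start, chr7:55065201-55065400: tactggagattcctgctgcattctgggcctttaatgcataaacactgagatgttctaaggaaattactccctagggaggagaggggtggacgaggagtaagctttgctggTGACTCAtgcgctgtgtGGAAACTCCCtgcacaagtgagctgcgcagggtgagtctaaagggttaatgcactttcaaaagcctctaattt
TGFA intron, 29.7 kb from the start, chr2:70524401-70524600: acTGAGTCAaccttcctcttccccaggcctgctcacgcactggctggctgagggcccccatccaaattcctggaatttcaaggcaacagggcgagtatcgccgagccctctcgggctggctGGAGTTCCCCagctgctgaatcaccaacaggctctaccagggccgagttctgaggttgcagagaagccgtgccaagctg
TGFA intron, 76.7 kb from the start, chr2:70477401-70477600: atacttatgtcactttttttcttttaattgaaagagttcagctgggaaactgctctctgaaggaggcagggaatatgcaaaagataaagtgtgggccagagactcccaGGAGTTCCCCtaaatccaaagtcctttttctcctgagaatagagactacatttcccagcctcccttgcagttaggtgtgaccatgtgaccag

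Exact matches were searched on both strands in all listed bins. The EGFR intron had a κB match and an AP-1 match within 200 bp, and the TGFA intron at 29.7 kb also had both. The 2 intronic TGFA regions held the same 10 letters, GGAGTTCCCC. Of the 13 regions, 8 had a κB match, 3 an AP-1 match, 1 a RUNX match (TGTGGTT or TGTGGTC) and none the consensus estrogen response element. Counted by bin, the κB consensus was matched in 34.8% of the 23 listed bins, in 38.6% of all listed bins of the genome and in 2.49% of the unlisted bins of the same loci. AP-1 was matched in 13.0%, against 9.88% of all listed bins and 3.16% of the unlisted ones. RUNX was matched in 4.35%, against 9.68% and 5.96%. The estrogen response element was in 0.0318% of all listed bins. A match is a run of letters and not a measured site.

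The listed bins were spread unevenly over the genes. EGFR had 12 listed bins in 5 regions, TGFA 5 bins in 3 regions, and EREG and HBEGF 1 bin each. AREG, EPGN, BTC, ERRFI1 and NRG1 had none in their own ranges, and the other 4 bins lay between AREG and BTC. Thus 4 of the 9 genes had a listed bin, beside 35.8% of all protein-coding genes. Signal is given throughout as mean tags per base of a bin, in tracks that were scaled to 10 M tags per library, so the tracks do not give the number of reads behind a value, and the number of libraries limits the precision. By group, 16 of the 23 bins were listed in HT29 mock, 12 in HT29 ERβ, 1 in SW480 mock and 10 in SW480 ERβ cells. Without replicate 1 the count was 7 in HT29 mock and 5 in HT29 ERβ cells, without replicate 2 or 3 it was 0 in SW480 mock cells, and with libraries scaled to the 932 bins of the genome listed in all 4 groups (shared bins) it was 3 in SW480 ERβ cells. Over the genome the 4 groups had 6123, 4067, 1499 and 9577 listed bins. At the edge of the rule, the TGFA promoter bin was listed at a mean of 2.00 in SW480 ERβ cells and 4.18 times input, while a bin in an intron of ERRFI1-DT, upstream of ERRFI1, missed it at a mean of 1.8 in HT29 mock cells and 5.30 times input.

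**Figure D1:**
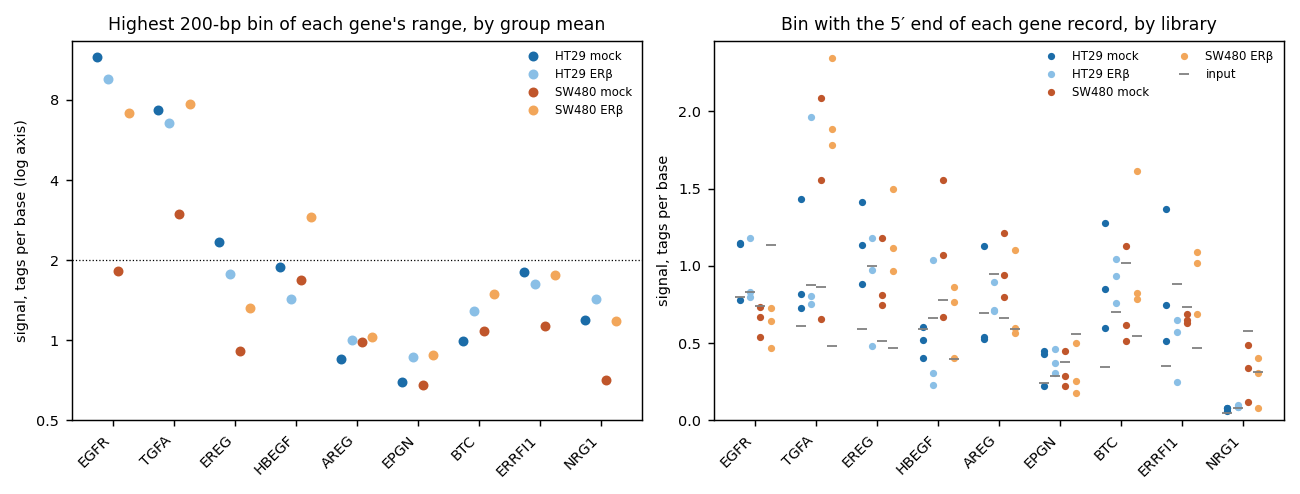
The left panel plots, for each of the 9 genes, the highest 200-bp group mean in its range (tags per base, log axis; dotted line at the listing limit of 2). EGFR reached 11.6 in HT29 mock cells and TGFA 7.71 in SW480 ERβ cells, while AREG and EPGN stayed near 1 or below in all groups. The right panel plots each library (points) and input (dashes) in the bin with the gene's 5′ end, where the libraries lay between 0.06 and 2.34.

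The libraries differed in strength. Over 932 bins of the genome listed in all 4 groups, the median signal of a library was 8.21 in HT29 mock replicate 1 and 4.10 and 4.27 in the other two, and 7.24 against 3.53 and 3.37 in HT29 ERβ cells, again with replicate 1 the highest. SW480 mock libraries lay at 3.87 to 4.53, and SW480 ERβ libraries at 5.07, 9.62 and 8.26, with replicate 1 the lowest. The median of all bins was 0.28 to 0.29 in every library. For the label check, signal in the coding exons of ESR2, the ERβ gene, was 4.49 to 8.21 times that of its introns in HT29 ERβ and 2.63 to 3.28 times in SW480 ERβ libraries, against 1.09 to 1.37 and 1.36 to 1.61 in the mock libraries. Groups were compared by limma on log2(signal + 1) over 109165 fitted bins of the genome, with adjustment over all of them, and log2 differences are on that scale, ± SE with 3 libraries a group, as ERβ minus mock within a line and SW480 minus HT29 between lines. Neighbouring bins share fragments and are not independent. A bin listed through 1 group or 1 line had to be high there, so its difference from the groups that did not list it is given as a description and its call is no independent support. The share of calls among the 23 bins is set beside that among the 12541 listed bins of the genome in the fit, which were chosen by the same rule.

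The highest signal of the family was in an intron of EGFR, 46.3 kb from the gene's start, in a region of 1000 bp (chr7:55064801-55065800). In its leading bin the HT29 mock libraries had 16.5, 9.63 and 8.54 tags per base. HT29 ERβ libraries had 14.6, 8.04 and 6.16. SW480 mock libraries had 1.49, 1.52 and 2.09, and SW480 ERβ libraries 6.40, 8.62 and 6.39, while the 4 inputs lay between 0.57 and 0.88. Signal was thus high in both HT29 groups, which overlapped, low in SW480 mock cells and high again in SW480 ERβ cells, with no overlap between the SW480 groups. Binding in fewer cells and less binding per cell cannot be told apart in such libraries. The mean over the 12 libraries ranked 275 of the 12569 listed bins of the genome.

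At this intron SW480 ERβ cells had 4.20 times the signal of SW480 mock cells, a log2 difference of 1.59 ± 0.30 (SE, n = 3 and 3; adjusted p = 0.00019). The call held in each of the 15 alternative settings tried, but scaling to shared bins lowered the difference to 0.98 (adjusted p = 0.0045). In SW480 mock cells the signal was also lower than in HT29 mock cells, by 6.81-fold (log2 difference -2.17 ± 0.36, adjusted p = 2.0e-06), again in every setting tried, division by the surrounding input included. In HT29 the difference between ERβ and mock cells was -0.27 ± 0.48, with a 95% interval from -1.21 to 0.67. That SE and interval are from the fit without replicate number as a block. Each HT29 ERβ library was below the mock library of the same number, as were the library medians over shared bins. With the block the adjusted p by limma was 0.60. The ERβ groups of the 2 lines differed by -0.32 ± 0.45 (adjusted p = 0.67). With libraries scaled to shared bins that difference was -0.95 and passed the threshold, and without HT29 ERβ replicate 1 it was 0.0041. Input over the EGFR range was 1.24 times higher in SW480 than in HT29 cells.

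Upstream of EGFR, 42.3 kb from its start and between genes, a region of 400 bp was listed in SW480 ERβ cells alone. The leading bin had 2.53, 3.56 and 4.33 tags per base in SW480 ERβ libraries and 0.94, 0.60 and 0.96 in SW480 mock libraries. HT29 mock libraries had 2.36, 1.14 and 0.70 and HT29 ERβ libraries 1.43, 2.17 and 0.87. Every SW480 ERβ library was above every other library of the 4 groups. SW480 ERβ exceeded SW480 mock by 4.18-fold (log2 difference 1.27 ± 0.25, or 0.76 with libraries scaled to shared bins), a direction that the listing in SW480 ERβ cells alone in part fixes. The 2 mock groups differed by -0.34 ± 0.24, which did not pass (adjusted p = 0.34), and the HT29 groups by 0.08 ± 0.30.

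A second intronic region of EGFR, 60.1 kb from the start and listed in HT29 cells only, had 7.99, 3.90 and 3.28 tags per base in HT29 mock libraries and 4.83, 2.96 and 2.65 in HT29 ERβ libraries. SW480 mock libraries had 1.83, 1.13 and 2.51 and SW480 ERβ libraries 1.40, 2.75 and 3.27. All 3 HT29 mock libraries were above all SW480 mock libraries (log2 difference -1.05 ± 0.35 for SW480 minus HT29, adjusted p = 0.023), a call that was lost without SW480 mock replicate 1 (adjusted p = 0.095) or replicate 2 (0.22), with differences of -1.07 and -0.86. The SW480 groups overlapped here and differed by 0.29 ± 0.27, with an interval from -0.24 to 0.82.

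The region 22.9 kb upstream of EGFR, also listed in HT29 cells only, had 4.77, 2.37 and 2.02 tags per base in HT29 mock, 4.95, 3.08 and 1.5 in HT29 ERβ, 1.04, 0.92 and 0.99 in SW480 mock and 1.70, 2.61 and 1.86 in SW480 ERβ libraries. The SW480 mock libraries were the lowest of the 4 groups and below their input, 1.21. SW480 mock was lower than HT29 mock (log2 difference -0.97 ± 0.30, adjusted p = 0.013), a call lost without any 1 of the SW480 mock libraries (differences of -0.95 to -0.99, adjusted p from 0.064 to 0.091). SW480 ERβ exceeded SW480 mock by 0.61 ± 0.23 on the log2 scale (adjusted p = 0.10, and 0.040 with replicate number as a block). A bin in EGFR-AS1, the antisense gene, 162 kb from the start of EGFR, had means of 0.89 and 0.76 in HT29 mock and ERβ cells and of 1.13 and 2.29 in SW480 mock and ERβ cells. The log2 difference between SW480 ERβ and mock cells there was 0.61 ± 0.24 (adjusted p = 0.12, and 0.043 with the block). At the bin with the 5′ end of EGFR the means were 1.02 ± 0.21, 0.94 ± 0.21, 0.65 ± 0.10 and 0.62 ± 0.13 (SD, n = 3) in the same order, beside inputs of 0.80, 0.83, 0.74 and 1.14.

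**Figure D2:**
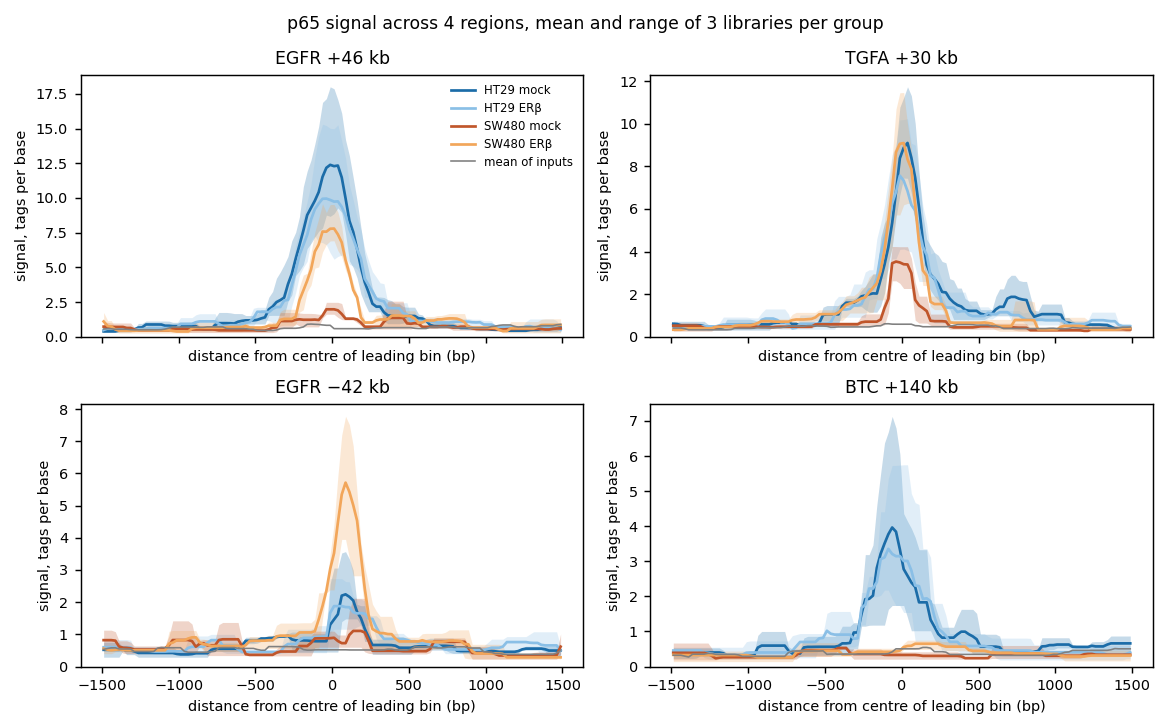
Signal (tags per base) against the distance from the centre of the leading bin (bp), as the mean (line) and range (band) of 3 libraries per group, with the mean of the 4 inputs in grey. In the EGFR intron and the TGFA intron SW480 mock cells had the lowest peak, upstream of EGFR SW480 ERβ cells had the highest, and the region 140 kb from BTC had a peak in the HT29 groups.

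Among the ligand genes in the set of 9, TGFA, which encodes a ligand that epithelial cells make for their own receptor, had the most signal. The intronic region 29.7 kb from its start (chr2:70524201-70524800) was the only one of the 13 that was listed in all 4 groups. Its leading bin had 9.59, 6.37 and 6.01 tags per base in HT29 mock libraries and 9.21, 6.63 and 3.75 in HT29 ERβ libraries. SW480 mock libraries had 2.06, 3.30 and 3.56, and SW480 ERβ libraries 5.41, 8.43 and 9.29. The SW480 mock group was the lowest and overlapped none of the others, whereas the other 3 groups overlapped each other.

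SW480 ERβ exceeded SW480 mock at this TGFA bin by 2.59-fold (log2 difference 1.12 ± 0.31, adjusted p = 0.017). With libraries scaled to shared bins the difference was 0.47 and did not pass (adjusted p = 0.18), and the call was also lost in the fit on all 12 libraries (0.067) and without SW480 mock replicate 1 or 2 or SW480 ERβ replicate 2 or 3 (0.19, 0.079, 0.073 and 0.14). SW480 mock was lower than HT29 mock (log2 difference -1.06 ± 0.36, adjusted p = 0.026), which was lost without any 1 of the SW480 mock libraries (0.071 to 0.20) or when signal was divided by the surrounding input (0.11), although the difference itself was then -0.88 to -1.17 and -0.99. In HT29 the ERβ and mock groups differed by -0.19 ± 0.50, and the sign turned under scaling and without HT29 ERβ replicate 3. The ERβ groups of the lines differed by 0.25 ± 0.45, and that sign turned in the same settings.

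The other intronic region of TGFA, 76.7 kb from the start, had 3.29, 1.53 and 2.26 tags per base in HT29 mock libraries. HT29 ERβ libraries had 2.74, 1.38 and 1.47. SW480 mock libraries had 0.59, 0.35 and 0.50 and SW480 ERβ libraries 0.71, 0.84 and 1.06. Here both SW480 groups stayed below both HT29 groups. The bin was listed through HT29 mock cells alone, from which SW480 mock differed by -1.15 ± 0.25 on the log2 scale, while the ERβ groups differed by -0.59 ± 0.26 (adjusted p = 0.098). The bin at the TGFA promoter had group means of 0.99, 1.17, 1.44 and 2.00 in HT29 mock, HT29 ERβ, SW480 mock and SW480 ERβ cells, and the groups overlapped in every comparison. Input over the TGFA range was 0.973 times as high in SW480 as in HT29 cells.

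EREG encodes epiregulin, a ligand often measured together with AREG in colon cancer. Its listed bin lay 245 bp before the start of the gene (chr4:74364801-74365000) and was listed through HT29 mock cells alone. HT29 mock libraries had 3.65, 1.57 and 1.83 tags per base, HT29 ERβ libraries 2.73, 1.27 and 1.34, SW480 mock libraries 0.75, 0.61 and 0.76, and SW480 ERβ libraries 1.12, 1.19 and 1.40. The SW480 mock libraries were below all others. SW480 mock was lower than HT29 mock (log2 difference -0.92 ± 0.27, adjusted p = 0.0071), and this call was lost when signal was divided by the surrounding input (-0.66, adjusted p = 0.076), which over the EREG range was 0.822 times as high in SW480 as in HT29 cells, and without SW480 mock replicate 2 (-0.88, adjusted p = 0.072). Between the SW480 groups the difference was 0.39 ± 0.20 (adjusted p = 0.27), although the libraries did not overlap.

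Between AREG and BTC 3 regions were listed, each between genes and in HT29 cells only. The one 140 kb past the start of BTC had 5.35, 1.5 and 2.50 tags per base in HT29 mock and 5.46, 1.82 and 1.69 in HT29 ERβ libraries. It had 0.36, 0.42 and 0.21 in SW480 mock and 0.55, 0.45 and 0.54 in SW480 ERβ libraries, beside inputs of 0.31 and 0.35. The one 129 kb from BTC had 5.29, 1.58 and 2.02 in HT29 mock and 3.68, 1.85 and 1.03 in HT29 ERβ libraries. SW480 mock libraries had 0.59, 0.37 and 0.32 there and SW480 ERβ libraries 0.42, 1.16 and 0.74. The one 101 kb past the start of AREG had 3.14, 2.21 and 1.68 in HT29 mock, 2.17, 1.95 and 1.66 in HT29 ERβ, 0.33, 0.33 and 0.32 in SW480 mock and 0.70, 0.22 and 0.38 in SW480 ERβ libraries. In HT29 the replicate 1 libraries were the highest at all 3, as they were over the genome.

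Listed through HT29 cells, these regions had lower means in SW480 cells with and without ERβ, a direction that the listing in part fixes. In mock cells the log2 differences were -1.52 ± 0.26 (140 kb from BTC), -1.36 ± 0.26 (129 kb from BTC) and -1.31 ± 0.24 (101 kb from AREG). In ERβ cells they were -1.27 ± 0.28, -0.78 ± 0.27 and -1.04 ± 0.24. The second of these passed at an adjusted p of 0.025 and was lost with division by the surrounding input (0.087), subtraction of input (0.19) and without HT29 ERβ replicate 1 (0.17), SW480 ERβ replicate 1 (0.13) or replicate 3 (0.11). Within SW480, ERβ and mock cells differed by 0.19 ± 0.13, 0.30 ± 0.17 and 0.10 ± 0.13, none past the threshold. Input was 0.786 to 0.822 times as high in SW480 as in HT29 cells over the ranges of the 4 genes of this stretch.

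**Figure D3:**
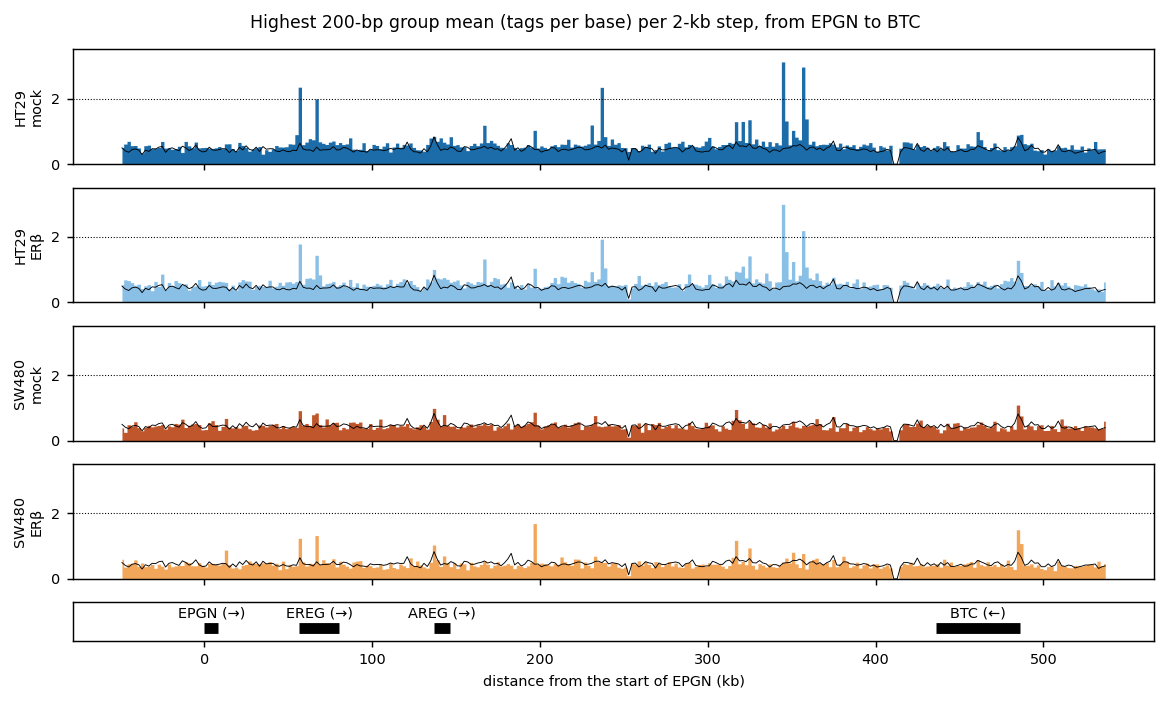
The highest 200-bp group mean (tags per base) in each 2-kb step, against the distance from the start of EPGN (kb), with a panel per group, the highest mean of the 4 inputs as a black line, a dotted line at 2 and the genes with their direction below. The HT29 groups rise at EREG and at 3 places between AREG and BTC, where the listed bins have means of 2.23 to 3.12 in HT29 mock cells, and the SW480 groups stay below 2 throughout. At 196.9 kb, also between AREG and BTC, SW480 ERβ cells are the highest (1.68), against 1.03 in HT29 mock, 1.04 in HT29 ERβ and 0.87 in SW480 mock cells.

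AREG encodes amphiregulin, a ligand expressed in many colon tumours. The bin with its 5′ end had 1.13, 0.53 and 0.54 tags per base in HT29 mock, 0.90, 0.71 and 0.71 in HT29 ERβ, 1.21, 0.94 and 0.80 in SW480 mock and 0.60, 1.10 and 0.57 in SW480 ERβ libraries, beside inputs of 0.59 to 0.95. No bin of its range had a group mean above 1.03. At the 5′ end of EPGN (epigen) the group means were 0.37, 0.38, 0.32 and 0.31, and at that of BTC (betacellulin) 0.91, 0.91, 0.75 and 1.08, in the order HT29 mock, HT29 ERβ, SW480 mock and SW480 ERβ. The highest group mean was 0.878 in the range of EPGN and 1.5 in that of BTC. None of these 3 ligand genes had a bin at the listing limit.

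HBEGF encodes a heparin-binding ligand. Its listed bin lay 16.9 kb upstream of its start but inside an exon of SLC4A9 (chr5:140363401-140363600), 3.31 kb from the start of that gene, so it cannot be assigned to HBEGF from these data. It had 1.87, 3.09 and 3.72 tags per base in SW480 ERβ libraries, 1.43, 1.79 and 1.83 in SW480 mock libraries, 2.80, 1.05 and 1.79 in HT29 mock libraries and 1.34, 1.33 and 1.60 in HT29 ERβ libraries. The SW480 ERβ libraries were above the SW480 mock and HT29 ERβ libraries and overlapped HT29 mock. No comparison passed the threshold (SW480 ERβ minus mock 0.51 ± 0.26, adjusted p = 0.26).

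ERRFI1, the feedback inhibitor, had no listed bin. The bin with its 5′ end had 1.37, 0.75 and 0.51 tags per base in HT29 mock, 0.65, 0.25 and 0.57 in HT29 ERβ, 0.69, 0.63 and 0.65 in SW480 mock and 0.69, 1.02 and 1.09 in SW480 ERβ libraries. HT29 mock replicate 1 was the highest of the 12, and the inputs lay between 0.35 and 0.88. The lowest SW480 ERβ library (0.691) was barely above the highest SW480 mock library (0.687). The bin was below the limits of the fit and was not tested. NRG1, which encodes a ligand of the related receptors ERBB3 and ERBB4, had no listed bin in 6383 bins read, and the means at its 5′ end were 0.07, 0.09, 0.32 and 0.26. Input over the NRG1 range was 0.10 and 0.13 in the HT29 groups, so that the SW480 inputs were 2.31 times higher. Mean signal over the range was 0.11 and 0.13 in the HT29 and 0.27 and 0.26 in the SW480 groups, and the part of input in this was not tested. The bin with the highest group mean, in an intron of NRG1, went the other way, with 1.15, 1.42, 0.25 and 0.57 in the same order. It was 5.24 and 15.6 times input in HT29 mock and ERβ cells but under the limit of 2. Its HT29 mock libraries were uneven (2.39, 0.28 and 0.79).

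**Figure D4:**
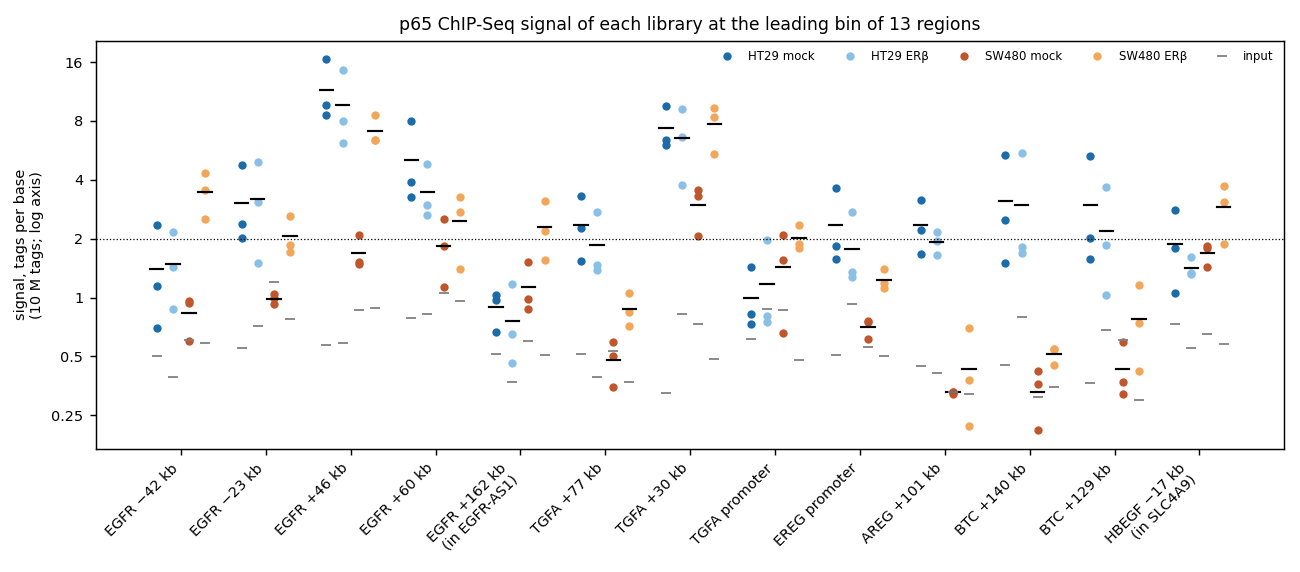
Signal of each library (points; tags per base, log axis) at the leading bin of the 13 regions, with group means as black lines, inputs as grey dashes and a dotted line at 2. Signs before kb give the direction from the start of the named gene. In the EGFR intron at +46 kb the SW480 mock libraries lie between 1.49 and 2.09 and all other libraries at 6.16 or above.

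Counted over all 23 bins, no bin of HT29 cells passed the threshold for ERβ against mock by limma, and none had an unadjusted p under 0.05, beside a background of 0% called lower. The blocked fit, with replicate number as a term, also called none, beside 41 of the 12541 listed bins of the genome. The differences ran from -0.39 to 0.27, with 9 of 23 above 0, a median of -0.12 and, over all listed bins of the genome, a median of -0.14. The 95% intervals differed in width between bins, and the narrowest ran from -0.55 to 0.31, at the EGFR-AS1 bin. The lowest bound was -1.33, in the EGFR intron 60.1 kb from the start, where the interval reached 0.55. The highest bound was 1.04, at a bin of the EGFR intron at 46.3 kb. In no bin did the 2 HT29 groups fail to overlap. The share of the genome without overlap was not counted for this pair, and replicate 1 was the strongest library of both groups. Paired by number, every ERβ library was below its mock library at the leading bins of the intronic EGFR regions at 46.3 and 60.1 kb. The same held at the TGFA intron at 76.7 kb, the EREG promoter and 101 kb from AREG, all listed through HT29 mock alone. At the other leading bins the direction was mixed. The median over shared bins was also lower in each HT29 ERβ library than in the mock library of the same number. How many listed bins of the genome have this order was not counted.

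In SW480 7 of the 23 bins (30.4%) were higher with ERβ and none was lower, beside 31.4% called higher over the listed bins of the genome, and the share was thus near the background. With 1 library left out the count was 3, 2 and 6 without SW480 mock replicates 1, 2 and 3 and 11, 3 and 4 without SW480 ERβ replicates 1, 2 and 3. The 7 were 3 bins of the TGFA intron at 29.7 kb, 2 bins of the EGFR intron at 46.3 kb and both bins of the region 42.3 kb upstream of EGFR. In 16 of the 23 (69.6%) the groups did not overlap, beside 51.9% of the listed bins and 20.3% of all fitted bins. The median difference was 0.42, below the median of 0.62 over the listed bins of the genome. Relative to that median the EGFR intron was 0.97 higher, the region upstream of EGFR 0.66 higher and the TGFA intron 0.50 higher, while the EREG promoter bin was 0.23 lower. Scaling to shared bins moved the median of all fitted bins by -0.30 and left 2 of the 7 calls, the leading bins of the EGFR intron and of the upstream EGFR region, with 830 bins called higher and 50 lower over the genome in place of 3932 and 0. The count was 10 (43.5%) with the replicate block, beside 48.5% called higher over the listed bins of the genome in that fit, again near the background. The block added the leading bin 22.9 kb upstream of EGFR, the EGFR-AS1 bin and a further bin of the EGFR intron at 46.3 kb (0.63 ± 0.23, adjusted p = 0.086 without the block and 0.034 with it).

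Between the mock lines 16 of the 23 bins (69.6%) were lower in SW480 cells and none was higher, beside 26.9% called lower over the listed bins of the genome. They were 4 of the 5 TGFA bins, the EREG bin, the 4 bins between AREG and BTC and 7 of the 12 EGFR bins. The groups did not overlap in 17 (73.9%), beside 35.3% of the listed bins and 21.2% of all fitted bins. The median difference was -0.99, against -0.25 over the listed bins of the genome. As 16 of the 23 bins were listed in HT29 mock cells, part of this share follows from the listing. The count was 9 without SW480 mock replicate 1 or 2, and 16 with scaling to shared bins.

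Between the ERβ lines 4 of the 23 bins (17.4%) were lower in SW480 cells, beside 9.94% over the listed bins. All 4 were the bins between AREG and BTC, listed through HT29 groups alone, so part of this share follows from the listing. The bin in EGFR-AS1 (4.35% of the 23) was higher, beside 37.6%, with 1.56, 3.13 and 2.19 tags per base in SW480 ERβ and 1.17, 0.65 and 0.46 in HT29 ERβ libraries. The bin was listed through SW480 ERβ cells alone. Its call (0.90 ± 0.27, adjusted p = 0.010) was lost under scaling (0.10) and without HT29 ERβ replicate 2 or 3 or SW480 ERβ replicate 2 (0.056, 0.099 and 0.080). The groups did not overlap in 3 bins (13.0%) that were higher in SW480, beside 42.3% of the listed and 22.9% of all fitted bins. They did not overlap in 7 (30.4%) that were lower, beside 11.7% and 11.4%. The higher ones were listed through SW480 ERβ cells alone. The lower ones, except a bin of the EGFR intron at 46.3 kb, were listed through HT29 cells alone. Both directions are thus in part fixed by the listing. With scaling, 17 bins were called, all lower, and the genome had 3663 bins called higher and 3205 lower in place of 4714 and 1246. These comparisons share libraries with the ones above and are not independent of them.

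The effect of ERβ was compared between the lines by an interaction term over all 12 libraries. No bin of the 23 was called, beside 7.00% called higher over the listed bins, while 6 had an unadjusted p under 0.05. The EGFR intron came nearest, with a difference of 1.86 ± 0.53 between the ERβ effects (adjusted p = 0.056). With the replicate block 6 bins (26.1%) passed, all higher in SW480, beside 44.2% called higher over the listed bins of the genome, so the share was below the background. They were 2 bins of the EGFR intron (adjusted p = 9.1e-06 in the leading bin and 0.015 in the other), both of the upstream EGFR region (0.0035 and 0.015) and 2 of the TGFA intron (0.0017 and 0.047).

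**Figure D5:**
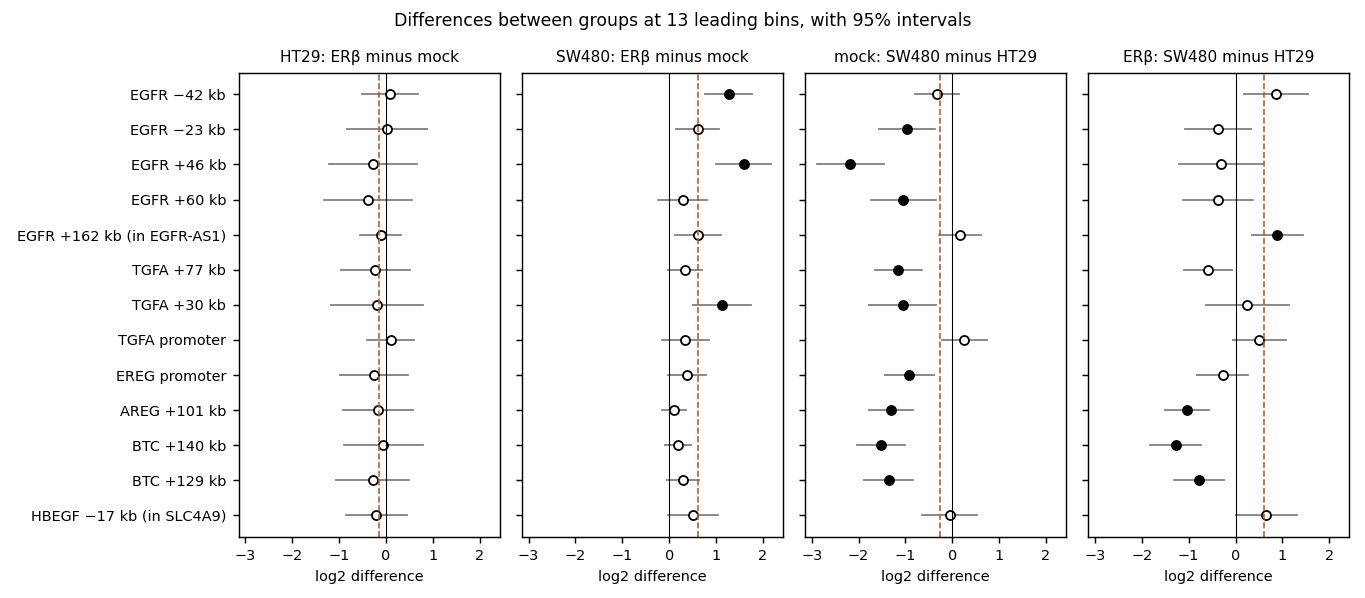
Log2 differences (points) with 95% intervals at the leading bins of the 13 regions in 4 comparisons, filled where the adjusted p was under 0.05; the dashed line is the median over the listed bins of the genome. In the SW480 comparison of ERβ and mock cells the EGFR intron (+46 kb), the upstream EGFR region (−42 kb) and the TGFA intron (+30 kb) are filled and lie to the right of that line at 0.62, and no point is filled in HT29.

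Other genes of the pathway were read over the same distances. Of 45 genes (further ligands and receptors, the proteases that release ligands, adaptors, the RAS-MAPK and PI3K cascades and negative regulators), 25 had a listed bin, or 55.6%. Their ranges are longer, with a median of 147.8 kb against 87.6 kb for all protein-coding genes. In SW480 12 of the 45 (26.7%) had a bin called higher with ERβ and none a bin called lower, beside 17.2% and 0% of all protein-coding genes, and in HT29 none had a called bin. Between the mock lines 16 (35.6%) had a bin lower in SW480 cells and 5 (11.1%) a higher one, beside 12.5% and 5.50%. Between the ERβ lines 4 (8.89%) had a lower and 9 (20.0%) a higher one, beside 4.19% and 17.3%, and 2 genes had a bin called in the interaction, beside 4.24%. These counts are from the main fit, and pathway genes were not read under other settings. Over the listed bins of the genome, scaling to shared bins lowered the bins called higher from 3932 to 830 for ERβ in SW480. In the interaction it lowered them from 878 to 118.

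The 8 pathway genes with the largest differences were MAP2K2, STAT5B, EGF, RHBDF2, STAT5A, GRB2, NRAS and SPRY4. At MAP2K2, a kinase of the MAPK cascade, a bin fell from a mean of 9.89 ± 7.53 in HT29 mock to 1.13 ± 0.52 in SW480 mock cells (SD, n = 3; log2 difference -2.16). EGF, the ligand that gave the receptor its name, had 7.83 ± 3.40 and 1.25 ± 0.70 (-1.96), NRAS 7.06 ± 2.62 and 1.67 ± 0.66 (-1.58), and SPRY4, an inhibitor of RAS signalling, 3.64 ± 1.65 and 0.53 ± 0.21 (-1.55) in the same 2 groups. STAT5B is a transcription factor downstream of the receptor. A bin in its range (chr17:42329001-42329200) had 0.67 ± 0.07 in SW480 mock and 4.74 ± 1.32 in SW480 ERβ cells (1.76). In the main fit the ERβ effect there differed between the lines (1.99, adjusted p = 0.010 by limma). A bin in the range of the neighbouring STAT5A (chr17:42288201-42288400) had 1.8 ± 0.49 and 7.89 ± 2.10 (1.65). The ranges of these 2 genes overlap and share bins, though both genes are counted. All these bins were placed by distance alone, so they may lie in or nearer to other genes and cannot be assigned to the genes named. RHBDF2, which helps the ligand-releasing protease ADAM17 to the surface, and GRB2, the adaptor that links the receptor to RAS, were higher in SW480 ERβ than in HT29 ERβ cells. Their means were 18.5 and 5.25 (1.69) and 4.0 and 0.58 (1.64). The MAP2K2 and SPRY4 bins were listed through HT29 cells alone, and the GRB2 bin through SW480 ERβ cells alone. The EGF, NRAS, STAT5B and STAT5A bins were under the limit of 2 in SW480 mock cells. The direction of these differences is thus in part fixed by the listing, and the genes were picked by size of difference.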

How the data were processed

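Per the labels and methods, the authors mapped single reads with STAR to GRCh38, used the unique ones and made tag directories with HOMER (versions are not given in the sources used here). They deposited 1 coverage signal track per library, scaled to 10 M tags and fragments of 100 bp, with nothing below 0.05. The tracks hold no counts, so the edgeR test of the study was not run, and they do not give the depth. Library totals of the study were not used here. The labels list the antibody and TNFα on the 4 inputs too, and these were read as inputs. The 9 genes, the pathway list and the tests were chosen with earlier results of these data known.

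Signal was averaged in 200-bp bins of chromosomes 1 to 22 and X (Python 3.11.15, numpy 2.4.6). Listed bins that touched or had at most 1 unlisted bin between them formed a region. Bins entered the fit at a mean over 12 ChIP libraries of at least 0.5 and 1.5 times the mean input. Differences in log2(signal + 1) were tested with limma 3.58.1 (trend) in R 4.3.3, with Benjamini-Hochberg adjustment over the fitted bins, on the 6 libraries of each pair and on 12 for the interaction, at an adjusted p of 0.05. The steps were tested on simulated data. P-values measure the spread between these libraries. The paper calls them biological replicates, and the labels do not say what separates them.

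Libraries of the same number deviated together within lines (correlations of 0.58, 0.23 and 0.26 in HT29 and 0.32, 0.14 and 0.23 in SW480), all above 0.1, so the numbers were taken to pair them. In HT29 2 pairs of different number correlated about as highly, mock 2 with ERβ 3 at 0.28 and mock 3 with ERβ 2 at 0.20. The pairing is read from these correlations and not from the labels. Every gene was named with its highest region, or the bin with its 5′ end where none was listed, and up to 3 further regions with a call. The bin in EGFR-AS1 was named beyond this rule, after its values were seen, and so was the HBEGF bin's host gene. Pathway genes with a call were named up to 8, by the largest difference. Genes came from GENCODE release 44, and a promoter ran from 1 kb before to 100 bp after a start. Motif letters were read from GRCh38, and sequences are printed for 3 of the 13 regions. Alternatives covered the limits of the rule, the pseudocount, the filter, scaling of libraries to the 932 shared bins, input, the replicate block and leaving out each library.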

Additional observations from a re-analysis of the deposited data

Results flagged for a closer look

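At 3 leading bins the effect of ERβ differed between the lines by the interaction term with the replicate block, while the same term without the block did not pass. The blocked term also called 44.2% of the listed bins of the genome higher, so such calls were common. At the EGFR intron 46.3 kb from the start the effect in SW480 cells exceeded that in HT29 cells by 1.86 on the log2 scale (adjusted p by limma 9.1e-06 with the block and 0.056 without). It was 1.59 in SW480 and -0.27 in HT29 cells. At the region 42.3 kb upstream of EGFR the difference was 1.19 (0.0035 and 0.13), from effects of 1.27 and 0.08. At the TGFA intron 29.7 kb from the start it was 1.31 (0.0017 and 0.23), from effects of 1.12 and -0.19. Over the listed bins of the genome the median of this difference was 0.77, and scaling to shared bins brought that median to 0.11. The libraries of SW480 ERβ cells were the strongest of that line over shared bins. With libraries scaled to these bins and no block, the 3 differences were 1.02, 0.48 and 0.45 (adjusted p = 0.081, 0.45 and 0.42), and none passed. The upstream region had been listed through SW480 ERβ cells alone, so the direction of its difference is in part fixed by the choice.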

How the results depend on the processing

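The 23 listed bins became 10 with a group mean of at least 3, 9 with at least 6 times input and 7 within 50 kb upstream to 2 kb downstream of the 5′ end, and 18 to 25 when 1 library was left out. Without HT29 mock replicate 1 the bins listed in HT29 mock cells fell to 7, and without HT29 ERβ replicate 1 those in HT29 ERβ cells to 5. Bins called for ERβ in SW480 numbered 2 under scaling to shared bins, 3 in the fit on all 12 libraries and 2 to 11 with 1 library left out, the 11 being without SW480 ERβ replicate 1. In HT29 the count stayed at 0 in all settings and with each library left out (0 to 0). Between mock lines the count was 9 to 16 with 1 library left out. Between ERβ lines it was 8 with a filter at a mean of 1, 8 on listed bins only, 17 under scaling and 4 to 5 with 1 library left out. The interaction called 1 bin with a pseudocount of 0.5, 1 with a filter at a mean of 1, 2 on listed bins only, 1 with input subtracted and 0 to 2 with 1 library left out. With the replicate block it called 6 (beside 44.2% of the listed bins of the genome), ERβ in SW480 10 (beside 48.5%) and in HT29 0 (beside 41 listed bins of the genome). Between lines, libraries of the same number did not deviate together (correlations from -0.073 to 0.029). A replicate block there, chosen after seeing the data, called 14 bins between mock lines and 4 between ERβ lines. Signs turned for the TGFA intron at 29.7 kb between HT29 groups (0.020 under scaling, and -0.44 to 0.11 with 1 library left out) and between ERβ lines (-0.39, and -0.048 to 0.50 likewise), and for the EGFR intron at 46.3 kb between ERβ lines (-0.56 to 0.0041 likewise). None of these had been called. The causes were not tested. Scaling moved the median of all fitted bins by 0.11, -0.30, 0.11, -0.30 and -0.41 in HT29, in SW480, between mock lines, between ERβ lines and in the interaction. The tracks do not give the depth behind a value.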

Other observations

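Within the listed regions, the position of the highest base was read in each library of the groups that listed the region. In the TGFA intron at 29.7 kb the summits of the 12 libraries lay 10.0 to 78.5 bp from the centre of the κB match, with a median of 19.3 bp. Those of the 3 SW480 mock libraries, with summit signals of 2.63 to 4.24, were 52.0 to 78.5 bp away, and 42.0 to 68.5 bp from the AP-1 match. In the EGFR intron at 46.3 kb the 9 summits were spread over 2.0 to 173.5 bp from the κB match, with a median of 57.0 bp. From the AP-1 match there they lay 4.0 to 155 bp away. At the TGFA promoter they lay 2.5 to 25.5 bp away and at the HBEGF bin 4.0 to 82.5 bp. A tag is drawn as 100 bp in these tracks, which limits how finely a summit can be placed, and the distances are descriptions only.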
